A study of Homo sapiens with 7 samples.

Results

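The ZNF143 loops described here were those of 2 HiChIP libraries made with 1 antibody from 2 kinds of HEC-1-B cell in which no protein had been removed. HEC-1-B is a human uterine adenocarcinoma line. One library came from unmodified (wild-type) cells and the other from CTCF-AID cells at 0 h of auxin (IAA), in which CTCF carries a degron tag but its breakdown has not been started. All loops of both lists were taken, 11981 from unmodified and 40405 from CTCF-AID cells, together 52386 of the 135475 loops in the 7 lists of the study. The other 5 lists held CTCF and RAD21 loops of wild-type and of ZNF143-deleted (ZNF143KO) cells and ZNF143 loops of the CTCF-AID cells after 24 h of auxin, and are used below only beside the ZNF143 loops. Per the labels, auxin degrades AID-labelled protein in cells that express TIR1. Whether the tagged line is 1 clone is not given in the sources used here. Each group was 1 library, so no p-value could be given, and the intervals below cover counting error only.

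ZNF143 is a zinc-finger transcription factor that binds at many promoters, often beside the factor THAP11 and the co-regulator HCFC1. It is best known from promoters of housekeeping genes and of small nuclear RNA genes. CTCF binds DNA through its own zinc fingers and, with the ring-shaped cohesin complex, of which RAD21 is a subunit, holds the bases of many chromatin loops. HiChIP ligates neighbouring DNA ends inside fixed nuclei, pulls down the joined fragments with an antibody and sequences both ends, so a loop is a pair of genomic intervals (anchors) with a count of the read pairs taken to support it.

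Gene names could not be read from the lists, which hold positions only, and no annotation of their build (hg19, the human assembly GRCh37) was used. Names were therefore given from general knowledge of where genes start in GRCh37, after the loops had been seen. A name was kept only where most of the spacings between its anchor and the anchors of other named genes, over up to 2 Mb, matched the spacing of those gene starts in the RefSeq tables of GRCh38.p14. Of 76 symbols tried, 70 passed, and 322 of the 328 spacings compared matched, each spacing being counted from both of its genes. A match allowed for the widths of both anchors and for 2500 bases at each gene. Where a gene had no promoter in the RefSeq table, either end of the gene was accepted as its start. The check of the names is therefore a loose one. Other genes may start at the same anchors.

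The promoters of 8 of these genes are shown because they hold letters that match the start of the ZNF143 binding motif, ACTACAA, whose reverse complement is TTGTAGT. The longer form TACAATTCC, with reverse complement GGAATTGTA, overlaps it by the letters TACAA. Both strands were searched, from 250 bases before to 50 bases after each RefSeq gene start. Capitals mark the matches, each stretch reads 5′ to 3′ along the gene's strand, and the GRCh38.p14 positions are not on the scale of the loop anchors. All 8 genes start at anchors of the loops and hubs named below, and no cause is read from a match.
PRCC, chr1:156767285-156767505, plus strand: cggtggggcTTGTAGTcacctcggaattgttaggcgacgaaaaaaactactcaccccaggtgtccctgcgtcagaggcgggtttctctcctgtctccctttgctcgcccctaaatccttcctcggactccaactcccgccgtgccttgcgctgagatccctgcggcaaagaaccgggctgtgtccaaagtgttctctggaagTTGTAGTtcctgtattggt
MRPL24, chr1:156741125-156741216, minus strand: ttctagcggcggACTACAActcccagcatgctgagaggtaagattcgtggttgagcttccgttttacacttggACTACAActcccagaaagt
FBXL19, chr16:30923341-30923430, plus strand: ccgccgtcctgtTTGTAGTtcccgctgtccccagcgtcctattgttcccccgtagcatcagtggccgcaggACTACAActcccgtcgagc
WBP2, chr17:75855487-75855585, minus strand: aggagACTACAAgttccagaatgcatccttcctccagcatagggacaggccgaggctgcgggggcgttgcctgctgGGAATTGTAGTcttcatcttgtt
ZSCAN22, chr19:58326919-58327010, plus strand: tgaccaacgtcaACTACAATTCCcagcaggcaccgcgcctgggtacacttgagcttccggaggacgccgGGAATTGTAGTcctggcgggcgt
FEM1A, chr19:4791489-4791523, plus strand: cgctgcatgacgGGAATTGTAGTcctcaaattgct
ZNF444, chr19:56141156-56141186, plus strand: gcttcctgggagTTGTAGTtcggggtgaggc
PPP1R13L, chr19:45405161-45405191, minus strand: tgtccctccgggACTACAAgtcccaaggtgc

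Of the 70 named genes, 51 had a promoter in the RefSeq table, and 13 of these held ACTACAA on either strand (25.5%, 95% Wilson interval 15.5 to 38.9). Among all 27305 genes with a promoter, 937 held it, or 3.43% (3.22 to 3.65). TACAATTCC was found at 3 of the 51 named genes, WBP2, ZSCAN22 and FEM1A (5.88%, 2.02 to 15.9), and at 112 of all genes (0.410%). All 13 genes with ACTACAA lay at anchors that had 10 or more partners in both lists, which 38 of the 51 genes did. The named genes were picked for strong loops or many partners and not at random, and several share an anchor or a loop, so these shares describe the named set only.

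Most of the strong ZNF143 loops of unmodified cells were listed again in CTCF-AID cells, and most of those with the lowest count, 2, were not. A loop was called found in the other list, or reproducible, where both of its anchors overlapped, or lay within 5 kb of, the 2 anchors of 1 loop there. Of the 11981 unmodified-cell loops, 7140 were found, 59.6% (58.7 to 60.5). Of the 40405 loops of CTCF-AID cells, 7828 were found in unmodified cells, 19.4% (18.99 to 19.76). The lists differed in size and depth, which moves with both shares: the CTCF-AID list held 3.37 times as many loops (3.30 to 3.44) and a summed count of 143119 against 49348.

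The counts of the 2 lists also had different forms. Even numbers made up 89.5% of the counts in CTCF-AID cells and 69.1% of those in unmodified cells. The lists were laid out differently as well, with 7 columns for unmodified and 8 for CTCF-AID cells, and whether the authors made them in the same way is not given. In particular, the sources used here do not say whether a read pair was counted once or 2 times in either list, so a CTCF-AID count may not be a number of read pairs. Each comparison was therefore repeated with the CTCF-AID counts divided by 2, rounded down, and loops with 2 or more kept. This left 10528 loops with a summed count of 39554, of which 70.5% were even. The step keeps the 4877 loops with a count of 4 and drops the 1994 with a count of 3 and the 27883 with a count of 2. Against the halved list, 4801 unmodified-cell loops were found, 40.1% (39.2 to 41.0), and 4713 of the 10528 halved-list loops were found in unmodified cells, 44.8% (43.8 to 45.7).

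The share found rose with the count in each direction, with and without halving. Among unmodified-cell loops with a count of 2 it was 44.9% (43.7 to 46.2) as deposited and 22.5% (21.4 to 23.5) with halved counts. At counts of 20 or more, 226 of 233 loops were found (97.0%, 93.9 to 98.5), and 223 of 233 with halved counts. In the opposite direction the share went from 9.44% of CTCF-AID loops with a count of 2 to 93.0% of the 556 loops with 20 or more. Of the 50 strongest loops of each list, 49 were found in the other. The loops found held 73.9% of the summed count of the unmodified list.

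**Figure D1:**
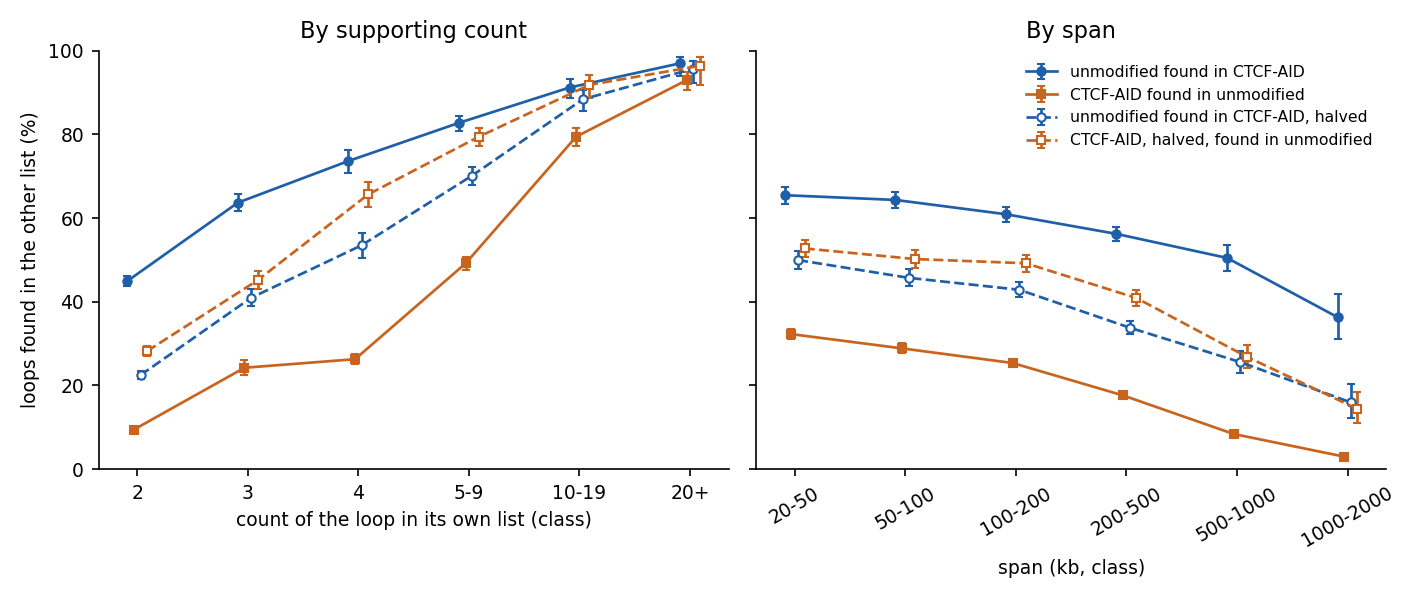
Share of ZNF143 loops found in the other list (%), by the count of the loop in its own list (left) and by its span in kb (right); blue stands for unmodified-cell loops, orange for CTCF-AID loops, dashed lines with open symbols for halved CTCF-AID counts, and bars for 95% Wilson intervals. All 4 series end above 90% at counts of 20 or more and are lowest for spans of 1000 to 2000 kb.

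Long loops were found less often than short ones. Among unmodified-cell loops of 20 to 50 kb the share was 65.5% (63.5 to 67.4), and among those of 1000 to 2000 kb it was 36.3% (31.2 to 41.8). With halved counts the same classes gave 50.0% and 15.9%. The median span was 130.0 kb (124.7 to 134.8) for the unmodified-cell loops found and 168.8 kb (163.3 to 177.0) for those not found. In CTCF-AID cells it was 129.6 kb for loops found and 277.1 kb for the others, and the whole CTCF-AID list had a median span of 235.6 kb against 144.5 kb, 1.63 times as long. With halved counts the CTCF-AID median was 139.7 kb, 0.967 times that of unmodified cells (0.916 to 1.03).

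Most loops that were not found still had an anchor in the other list. Among all distinct anchors, 82.4% of the unmodified ones lay at a CTCF-AID anchor and 40.3% of the CTCF-AID ones at an unmodified anchor. The counts below are therefore not read as a trait of unmatched loops. Of the 4841 unmatched unmodified-cell loops, 2780 had both anchors at anchors of the CTCF-AID list (57.4%), 1899 had 1 and 162 had none. The strong ones differed: of the 60 with a count of 10 or more, 48 had exactly 1 anchor there (80.0%, 68.2 to 88.2) and 12 had both. Of the 32577 unmatched CTCF-AID loops, 11201 had both anchors in the unmodified list (34.4%), 13438 had 1 and 7938 had none. Among the 39 of these with counts of 20 or more, 35 had exactly 1. Against the halved list, 2778 of the 7180 unmatched unmodified-cell loops had both anchors there (38.7%) and 1157 had none (16.1%). The anchors are the ends of listed loops only, so a missing anchor and a missing loop cannot be told apart. Anchors with the same start and end in both lists numbered 6091, 62.7% of the 9711 unmodified and 28.8% of the 21128 CTCF-AID anchors.

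Counts of the loops found were compared between the cell types, which leaves out every loop listed in 1 of them only. For each of the 7140 loops 1 match was taken, preferring anchors that overlapped without extension and then the highest count. The median ratio of the CTCF-AID to the unmodified count was 1.33 (quartiles 1 and 2), and 1.25 over the 226 loops with 20 or more counts in unmodified cells, of which 144 were higher in CTCF-AID cells. With halved counts the median ratio was 1 over 4801 loops and 0.619 over the 223 strong ones. The strong loops are picked by their unmodified count, the divisor of the ratio, and no listed count is below 2. Both lower the ratio of strong loops relative to the rest, so nothing is read from that difference. Across the 7140 loops the counts had a Spearman rho of 0.520. Many of these loops share anchors and all share 2 libraries, so this is a description.

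The reproducible loop with the highest support joined a pair of anchors on chromosome 1, 20.6 kb apart. Support was ranked by the lower of the unmodified and the halved CTCF-AID count, and 12 loops were described by that rule. This first one runs from chr1:156715857-156717348, with no gene named, to chr1:156736325-156738000 at the start of PRCC, a gene first known from translocations in papillary renal cell carcinoma. It had a count of 100 in unmodified and 321 in CTCF-AID cells, and 400 after 24 h of auxin. The PRCC anchor also met chr1:156709697-156712115 at MRPL24, which encodes a protein of the large mitochondrial ribosomal subunit, with 99 and 262 counts. PRCC was also joined to chr1:156694980-156699097, at METTL25B and ISG20L2, the latter an exonuclease of ribosomal RNA processing, with 102 counts in unmodified and 138 in CTCF-AID cells. None of the 3 loops was listed for CTCF or RAD21 in wild-type cells. PRCC and MRPL24 are among the promoters shown, each with the ACTACAA letters at 2 places.

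The merged PRCC anchor had 32 partners in unmodified and 43 in CTCF-AID cells, of which 25 were shared. The shared partners held 96.6% of its unmodified count of 558. Its 3 partners with the highest unmodified counts, 102, 100 and 99, had 162, 321 and 262 in CTCF-AID cells. Together they carried over 50% of its summed count in each cell type.

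Further short loops joined the starts of gene pairs. On chromosome 19, chr19:42746154-42749865 at GSK3A, a kinase of glycogen and Wnt signalling, met chr19:42771393-42773763 at CIC, the repressor capicua, with 85 counts in unmodified and 283 in CTCF-AID cells. On chromosome 8, EXOSC4, a subunit of the RNA exosome, at chr8:145132848-145134526, met chr8:145157878-145161299 with MAF1, a repressor of RNA polymerase III, and SHARPIN, of the linear ubiquitin ligase, with 80 and 180 counts. On chromosome 16, chr16:30907279-30909403 at CTF1 and BCL7C met chr16:30932842-30936136 at FBXL19, an F-box protein that binds CpG islands, with 56 and 145 counts. These 3 loops spanned 24.6, 25.9 and 26.1 kb, and only the last was listed for wild-type CTCF, with a count of 2.

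The loop with the highest count in unmodified cells was not higher in CTCF-AID cells. It joined chr17:73779486-73781987 at UNK, an RNA-binding zinc-finger protein, with chr17:73850841-73852478 at WBP2, a WW domain-binding coactivator, 70.9 kb away. Its count was 127 in unmodified and 111 in CTCF-AID cells, and it was the only 1 of the 12 that was not higher in the tagged cells as deposited. With halved counts it was 55, and 6 of the 12 loops were lower than in unmodified cells. The summed counts of both anchors, which include this loop, were 505 in tagged against 527 in unmodified cells at UNK and 379 against 499 at WBP2. The loop is singled out by its unmodified count, which favours a lower count in the other list, so nothing is read from the direction.

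A loop at THAP11, whose protein acts at many ZNF143-bound promoters, was also among the 12. It ran from chr16:67839297-67841770, at RANBP10 and TSNAXIP1, to chr16:67875049-67876968 and had 89 counts in unmodified and 94 in CTCF-AID cells. After 24 h of auxin it was listed with 180. Neither wild-type CTCF nor RAD21 lists held it.

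The other 4 loops of the rule lay on chromosome 19. ZSCAN22 at chr19:58836404-58839454 and ZNF497 at chr19:58872961-58874613, both zinc-finger genes, were joined with 66 and 108 counts. IZUMO1, the sperm protein of egg fusion, at chr19:49247791-49251407, met MAMSTR, a MEF2 coactivator, at chr19:49222747-49225635 with 52 and 206 counts. It also met chr19:49227303-49229014, with no gene named, with 67 and 96 counts. The last loop ran over 80.7 kb from chr19:45906702-45909809, at PPP1R13L, an inhibitor of p53, and POLR1G, a subunit of RNA polymerase I, to chr19:45987998-45989832, with 89 and 97 counts. It was the only 1 of the 12 on the wild-type RAD21 list, with a count of 5.

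As a set, the 12 loops spanned 20.6 to 80.7 kb, and 9 of them had a named gene at both anchors. The choice by the halved CTCF-AID count favours loops with high counts in those cells, so nothing is read from the 11 that had more counts there than in unmodified cells, which 3905 of all 7140 reproducible loops had. With halved counts 6 of the 12 were lower than in unmodified cells, and of all 4801 loops found 1573 were higher and 2119 lower, so the direction depends on the scale of the CTCF-AID counts. All 12 were listed after 24 h of auxin, against 58.2% of all reproducible loops and 77.4% of those with 10 or more counts in unmodified cells, and each had more counts there than at 0 h. Of the 4153 reproducible loops listed at 24 h, 2401 had more counts than at 0 h (57.8%, 56.3 to 59.3), and of the 188 with 20 or more counts in unmodified cells 144 did (76.6%). For wild-type CTCF 2 of the 12 were listed and for RAD21 1, with no count above 5, beside 20.0% and 17.2% of all reproducible loops. The next 18 loops in the same order fall outside the rule and were looked at after their values had been seen. Among the first 30, 18 lay on chromosome 19, 25 had more counts at 24 h than at 0 h, 23 had a named gene at both anchors and 8 each were listed for wild-type CTCF and RAD21. They include KBTBD6 with KBTBD7, related adaptors of a cullin ubiquitin ligase on chromosome 13 (40 and 80 counts), DPP9 with FEM1A (62 and 79), SCAF1 with PRMT1, an arginine methyltransferase (37 and 104), CDK5, a kinase of neurons, with TMUB1 and FASTK (36 and 121), and GSTA4 with FBXO9 (38 and 69).

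The strongest loops listed in 1 cell type only had lower counts than each of the 12 reproducible ones had in the same cells. In unmodified cells the highest unmatched count was 38, for chr20:62693549-62695306 with chr20:62713838-62715785, where no gene was named. The next, with 32, joined chr19:56616009-56620480 to chr19:56651574-56654677 at ZNF444. A pair of loops with 24 counts each lay on chromosome 16. One joined TRAF7, a ubiquitin ligase, at chr16:2204742-2206799 to ECI1, a mitochondrial enzyme of fatty acid oxidation, at chr16:2301059-2302869, and the other joined RANBP10 and TSNAXIP1 to chr16:67898898-67900005.

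In CTCF-AID cells the highest unmatched count was 68, for VCPIP1, a deubiquitinase, at chr8:67576863-67580649 with SGK3, a kinase, at chr8:67624573-67626359. FEM1A, a substrate receptor of a ubiquitin ligase, met chr19:4759135-4760634 with 46. COX14, an assembly factor of cytochrome oxidase, at chr12:50504878-50507149, met CERS5, a ceramide synthase, at chr12:50560635-50561821 with 43. The last, chr19:36389502-36392558, met chr19:36421644-36423406 with 40. Each of the 10 loops that the rule picks from the unmatched ones, 5 per list, had exactly 1 of its anchors in the other list. Of the 5 CTCF-AID loops, 2 were listed again after 24 h of auxin, with 41 counts at FEM1A and 19 at COX14. None of the 5 unmodified-cell loops was. Among all unmatched loops with 20 or more counts, 15 of 39 from CTCF-AID and 0 of 7 from unmodified cells were listed then. The 0 h and 24 h libraries come from the same tagged line, so nothing is read from this contrast.

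Chromosome 19 held the largest share of the loops in both cell types. It had 2951 loops in unmodified cells (24.6%, 23.9 to 25.4), 7951 in CTCF-AID cells (19.7%) and 2759 with halved counts (26.2%). Of wild-type CTCF loops 5.87% lay there, and of wild-type RAD21 loops 4.92%. Loops of this chromosome were also found again more often: 72.5% (70.8 to 74.0) of its unmodified-cell loops against 55.4% on all other chromosomes, a difference of 17.1 percentage points (15.1 to 18.9, Newcombe interval). With halved counts the shares were 52.3% and 36.1%. Within count classes the difference was 15.6 points at a count of 2, 13.4 at 3, 10.99 at 4, 7.25 at 5 to 9 and 8.66 at 10 to 19, with intervals above 0, and 1.81 (-3.60 to 6.79) at 20 or more. The lowest shares were on chromosome X, 22% of 50 loops, and chromosome 4, 31.7% of 41.

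**Figure D2:**
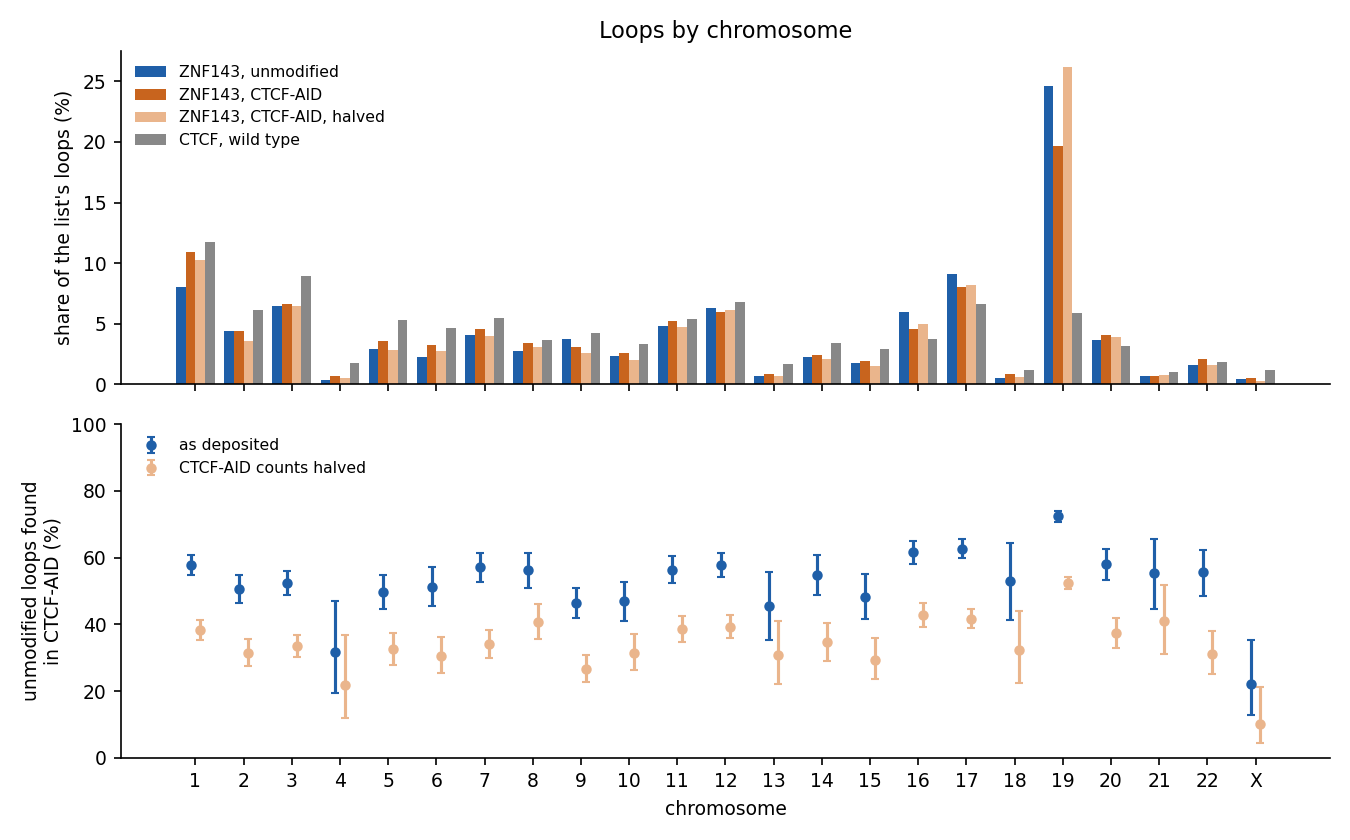
Loops by chromosome: above, the share of each list's loops (%) for ZNF143 in unmodified cells, in CTCF-AID cells as deposited and with halved counts, and for wild-type CTCF; below, the share of unmodified-cell ZNF143 loops found in CTCF-AID cells (%) with 95% Wilson intervals. Chromosome 19 stands out in the 3 ZNF143 lists, at 24.6%, 19.7% and 26.2%, and has the highest share found, 72.5%.

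Within the chromosomes the same megabases were loop-rich in both cell types. Over 2243 bins of 1 Mb with a loop in either list, the loop numbers had a Spearman rho of 0.767, and 0.746 with halved counts, as a description over bins of the same 2 libraries. Of the 20 bins with most unmodified-cell loops 12 lay on chromosome 19, and 18 were also among the 20 with most CTCF-AID loops. The richest, from 49 to 50 Mb of chromosome 19, held 395 unmodified and 912 CTCF-AID loops, 321 reproducible ones and 57 wild-type CTCF loops. The bin from 58 to 59 Mb, which holds a zinc-finger gene cluster, held 213, 506, 162 and 5 of the same kinds. The 20 bins together held 21.3% of unmodified-cell ZNF143 loops, 15.0% of those of CTCF-AID cells and 4.47% of wild-type CTCF loops.

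Nearly all anchors with many partners in unmodified cells also had many in CTCF-AID cells. Overlapping anchors of the 2 lists were merged into 23192, and a merged anchor with 10 or more different partners in a list was called a hub. There were 359 hubs in unmodified and 1428 in CTCF-AID cells, and 346 anchors were hubs in both, 1.49% of all merged anchors. These were 96.4% of the unmodified and 24.2% of the CTCF-AID hubs. With halved counts there were 287 hubs, of which 230 were hubs in unmodified cells too, 80.1% of the halved and 64.1% of the unmodified hubs. Over the 7635 merged anchors with a loop in both lists the partner numbers had a Spearman rho of 0.609. Hubs of both lists shared a median of 70.2% of their unmodified-cell partners, and other anchors with 2 or more partners 50%. These hubs were chosen for 10 or more partners in the CTCF-AID list, where their median was 26.5. That choice itself raises the share, so nothing is read from the difference.

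**Figure D3:**
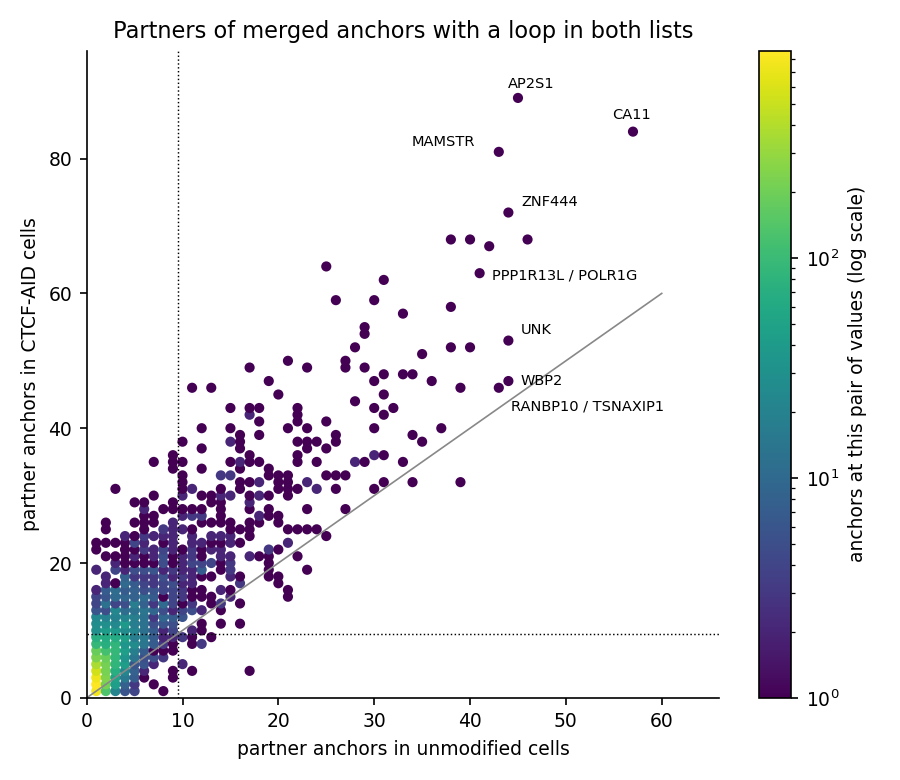
Number of partner anchors in unmodified (horizontal) and CTCF-AID cells (vertical) for the 7635 merged anchors with a loop in both lists; colour gives the number of anchors at each pair of values, dotted lines the minimum of 10 partners, the grey line equal numbers, and the labels the named genes among the 10 hubs of the rule. CA11 has the most partners in unmodified cells, 57, and AP2S1 in CTCF-AID cells, 89.

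The hub with most partners in unmodified cells lay at CA11, a carbonic anhydrase-related protein, at chr19:49147305-49150694. It had 57 partners in unmodified, 84 in CTCF-AID cells and 47 with halved counts, and 45 were shared by both lists as deposited. Its summed counts were 581 and 821, and the shared partners held 90.4% of the first. Its strongest partners in unmodified cells were MAMSTR, 75.2 kb away (50 and 82 counts), the anchor of RPL18, a ribosomal protein, and SPHK2, a sphingosine kinase (46 and 91), and IZUMO1, 100.6 kb away (41 and 66). A partner 67.5 kb away had 23 counts in unmodified cells and was not listed for CA11 in CTCF-AID cells.

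**Figure D4:**
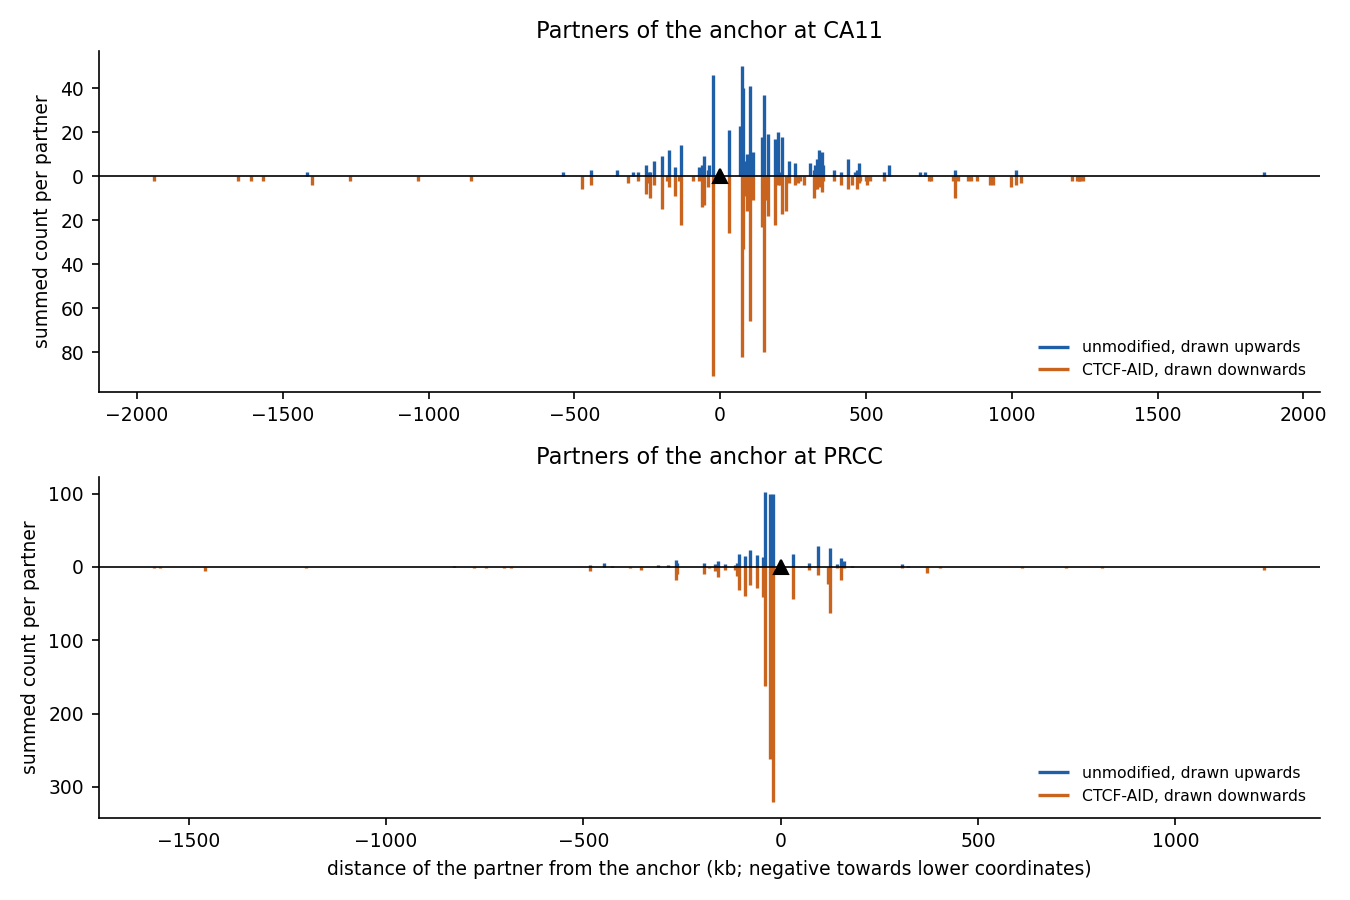
Partners of the merged anchors at CA11 and at PRCC by distance in kb (horizontal, negative towards lower coordinates) and summed count (vertical, unmodified drawn upwards and CTCF-AID downwards); the triangle marks the anchor itself. The tallest partners stand at the same distances in both cell types, among them 75.2 kb for CA11 with 50 and 82 counts.

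The other 9 hubs of the rule, the 10 with the highest lower number of partners, had 41 to 46 partners in unmodified and 46 to 89 in CTCF-AID cells. AP2S1, a subunit of the clathrin adaptor complex, at chr19:47353490-47355208, had 45 and 89 partners, and 54 with halved counts. ZNF444, a zinc-finger gene at chr19:56651574-56654677, had 44 and 72, and MAMSTR 43 and 81. The anchor of PPP1R13L and POLR1G had 41 and 63. At UNK (44 and 53), WBP2 (44 and 47) and RANBP10 with TSNAXIP1 (43 and 46) the numbers of the 2 cell types were close, and with halved counts they were 34, 27 and 29. As deposited, 322 of the 346 hubs of both lists had more partners in CTCF-AID than in unmodified cells. Halving left 256 of the 346 with fewer partners than in unmodified cells and 73 with more. For 2 hubs, chr19:49297700-49299717 (46 and 68) and chr19:55627847-55630996 (42 and 67), no gene was named. Of the 10, 7 lay on chromosome 19, and all were at anchors of the 24 h list. So were 65 of the 70 named genes, and the latter trait is not particular to these hubs.

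Hubs of both lists lay at wild-type CTCF anchors about as often as all merged anchors, and less often than the other anchors with loops in both lists. Of the 346 hubs 168 did (48.6%, 43.3 to 53.8), and of all 23192 merged anchors 48.2% (47.6 to 48.9). The share was 62.4% of the 6342 merged anchors with a loop in both lists that were hubs in neither, a difference (hubs minus these) of -13.9 points (-19.2 to -8.47). On chromosome 19, where 43.6% of these hubs lay against 7.82% of all merged anchors, the difference was -10.3 points (-19.1 to -1.37), and on the other chromosomes -12.3 (-19.3 to -5.22). For RAD21 anchors the shares were 40.8% of the hubs and 44.8% of all merged anchors, and the difference from the non-hub anchors was -17.7 points (-22.9 to -12.3). The hubs were also wider, with a median of 2.13 kb against 1.86 kb, and the part of the width in this difference was not tested.

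Linked through shared anchors, the reproducible loops formed 1005 networks, of which 533 were single pairs of anchors and 112 had 10 or more. The largest lay on chromosome 19 from 41914715 to 51612577, with 312 anchors and 911 joined pairs over 9.70 Mb. It held 65 of the 346 hubs of both lists, among them those of CA11, AP2S1, MAMSTR and of PPP1R13L with POLR1G. The next ones in size were also on chromosome 19, with 177 anchors, among them FEM1A, and 125, among them ZNF444 and ZSCAN22. UNK and WBP2 shared a network of 54 anchors on chromosome 17. With halved counts there were 742 networks, and the largest, of 252 anchors, lay in the same stretch.

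How often reproducible and unmatched loops were listed for wild-type CTCF differed in amount with the list they were taken from, and in direction with the anchor extension. For the unmodified list the share was 20.0% of 7140 reproducible and 17.4% of 4841 unmatched unmodified-cell loops, a difference of 2.65 points (1.22 to 4.06). For RAD21 the shares were 17.2% and 14.9%, a difference of 2.31 points (0.971 to 3.64). Within that list, only the class with a count of 2 had an interval above 0, with 5.46 points for CTCF and 5.10 for RAD21. For the CTCF-AID list the shares for CTCF were 21.2% of loops found and 9.77% of the others, a difference of 11.4 points (10.4 to 12.4), and the RAD21 difference was 9.63 points (8.74 to 10.5). There, with counts as deposited only, the intervals lay above 0 in each count class, with 3.50 to 12.5 points for CTCF and 2.62 to 10.5 for RAD21. With halved counts the differences of the CTCF-AID list, over all count classes together, were 5.11 and 3.58 points. Where anchors had to overlap without the 5 kb extension, both differences of the unmodified list turned, to -1.14 (-2.39 to 0.112) and -0.841 (-2.03 to 0.339) points.

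The ZNF143 list of CTCF-AID cells after 24 h of auxin separated the classes further. It held 58.2% of the reproducible and 16.3% of the unmatched unmodified-cell loops, a difference of 41.9 points (40.3 to 43.4), which was 32.0 points at a count of 2 and 64.1 at 10 or more. With halved counts the shares were 66.6% and 24.3%. The 24 h library comes from the same tagged line as the 0 h one and its list has the same layout, so the tag, the layout and the line cannot be told apart here.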

How the data were processed

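Loop lists of 7 HiChIP libraries, 1 per group, were deposited by the authors, with whole-number counts per pair of anchors. HiC-Pro and the genome build hg19 are named in the submitters' processing notes; the loop caller, its filters and any pooling are not given in the sources used here. Counts start at 2 and were not scaled to depth, and loops in both lists spanned 20.0 kb to 2.00 Mb. PCR copies cannot be told from separate molecules, and loops with a common anchor are not independent of each other.

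Groups were taken from the labels. Loops were matched by the overlap of both anchors after extension by 5 kb, a rule tested on simulated data, with python 3.11.15, numpy 2.4.6, scipy 1.17.1 and networkx 3.6.1; figures used matplotlib 3.10.9. Shares have 95% Wilson, differences Newcombe, ratios of loop numbers exact binomial and medians order-statistic intervals. The ratio of median spans has bounds from those of both medians. Positions are counted from 1.

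The loops named are the 12 reproducible ones with the highest lower count (unmodified or halved CTCF-AID, 1 per pair of merged anchors), the 5 strongest unmatched of each list, the 10 hubs with the highest lower partner number and genes at them. The members and lists were chosen with earlier results of these data known. Of the unmatched loops, 2 are not reported here. Gene starts had a tolerance of 2500 bases. Gene lists and genes ranked by loops were not counted, because they need an annotation of the build. Alternatives were the anchor extension, halving, a minimum count of 5, spans of 40 kb to 1 Mb, equal list sizes, merged anchors and other hub minimums.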

Additional observations from a re-analysis of the deposited data

How the results depend on the processing

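With 1 library per list, there was no replicate to leave out, and counting intervals do not cover differences between cultures. No paired analysis was possible because each group holds 1 library. The cause of the moves below was not tested. Genes at reproducible anchors were not recomputed, because no annotation of the build was used.

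The share of unmodified-cell loops found (59.6%) was 52.7% without extension and with merged anchors, 65.3% with 10 kb, 40.1% with halved counts, 69.4% at a minimum count of 5 and 42.5% with equal numbers of the strongest loops. It was 28.3% with identical anchor ends, a setting chosen after seeing the data. The share of CTCF-AID loops found (19.4%) was 15.6%, 23.4%, 44.8%, 33.2% and 42.3% under no extension, 10 kb, halving, minimum 5 and equal numbers, and 19.9% for spans of 40 kb to 1 Mb.

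The ratio of loop numbers, 3.37, turned to 0.879 with halved counts and was 2.23 at a minimum of 5 and 3.25 for 40 kb to 1 Mb. The ratio of median spans, 1.63, turned to 0.967 with halving, with an interval that includes 1, and was 1.17 and 1.36 under the same settings. Hubs of both lists, 346, numbered 230 with halving, 64 at a minimum of 5, and 941 and 101 with 5 and 20 partners.

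The difference in CTCF loop share between reproducible and unmatched loops, 2.65 points, was -1.14 without extension and 5.96 with 10 kb. For RAD21 it went from 2.31 to -0.841 and 3.92, and to 5.75 at a minimum of 5. The interval also reached below 0 for CTCF at a minimum of 5 (3.19, -0.0321 to 6.21) and for RAD21 at 40 kb to 1 Mb (1.39, -0.0593 to 2.83). Of 35 alternatives, 24 moved a value past its interval or by over 1.5 times, 4 reversed it and 7 did neither.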
